A study of Mus musculus with 6 samples.

Results

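The genes described here encode the potassium channels of the mouse and their dedicated auxiliary subunits, as measured in the hippocampus of mice with and without the microRNA miR-301a. They were taken by name: every gene whose symbol begins with Kcn, leaving out Kcnq1ot1 and the antisense or opposite-strand transcripts Kcnab3os, Kcnd3os, Kcnmb4os1 and Kcnmb4os2. The last 2 names end in os followed by a digit and were left out as the same kind of transcript. This gave 94 of the 54393 genes in the deposited table. The rule used symbols and no measured values, but it was set with earlier results of these data known. Of the 94, 69 reached a value of 1 in 3 or more of the 6 libraries and were tested, and 25 were not tested. Messenger RNA was sequenced from 3 wild-type libraries (1-1, 2-1 and 2-2) and 3 libraries of the miR-301a-/- genotype (1-1, 2-2 and 3-1), called knockout below. All mice were C57BL/6, 6 to 8 weeks old, and no treatment is named. The labels name no Cre line and no restriction of the deletion to a tissue. What the codes of the libraries mean is not stated, and nothing says that each library is a separate animal, so the p-values rest on how much these libraries vary, part of which may be technical. Whole hippocampus was used, so fewer cells of a type and less RNA per cell cannot be told apart in any value below.

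Potassium channels let potassium ions leave or enter a cell along their gradient and so set the resting potential, the shape of the action potential and the pauses between spikes. Voltage-gated (Kv) channels open on depolarization, calcium-activated channels open when calcium enters, inward rectifiers (Kir) pass current near rest, and 2-pore-domain (K2P) channels provide leak. In hippocampal neurons these classes lie in different compartments, with several Kv1 channels on axons, Kv4 channels in dendrites and Kv7 channels at the axon initial segment. MicroRNAs pair through their seed, nucleotides 2 to 8, with sites in 3' untranslated regions (UTRs) and usually lower the level or translation of the transcript.

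The potassium channel transcripts of the hippocampus were at similar levels in the 2 genotypes. With limma, 0 of 69 tested genes had a Benjamini-Hochberg adjusted p under 0.05 (smallest 0.51), and 3 of 69 (4.35%; Kcnab3, Kcnk12 and Kcnj9) had an unadjusted p under 0.05. Over all 14708 genes tested, 16 (0.109%) had an adjusted p under 0.05, and 841 (5.72%) an unadjusted p under 0.05. The log2 fold changes of knockout over wild type ran from −0.386 (Kcnab3) to 0.327 (Kcnq5), with a median of −0.00813 against −0.00383 for all genes tested. By sign, 32 were positive and 37 negative. The median size of the change was 0.0794 on the log2 scale, against 0.0857 for all genes tested. Intervals were read on the scale of log2(value + 1). On it, the 95% interval lay within 1.5-fold in either direction for 60 of the 69 genes. It lay within 2-fold for all 69. That scale understates changes of genes with low values, so their intervals are wider as fold changes of the values themselves. Changes smaller than these intervals were not detectable with 3 libraries a group. An interval without 0 was not enough for the adjusted test. Kcnab3, Kcnk12 and Kcnj9 had one, with limma adjusted p of 0.51, 0.718 and 0.874. The values of the 3 wild-type and 3 knockout libraries did not overlap for 6 genes (8.70%), against 1672 genes (11.4%) of all tested. Of these 6, 3 were higher in knockout (Kcnh1, Kcnc2 and Kcnk6), where 5.7% of all tested genes were, and 3 were lower (Kcnab3, Kcnk12 and Kcnip3), where 5.67% were. Both shares were close to those of the whole table. In the authors' deposited table, the p-value was exactly 1 for all 69 tested genes, with log2 fold changes from −0.419 to 0.397.

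**Figure D1:**
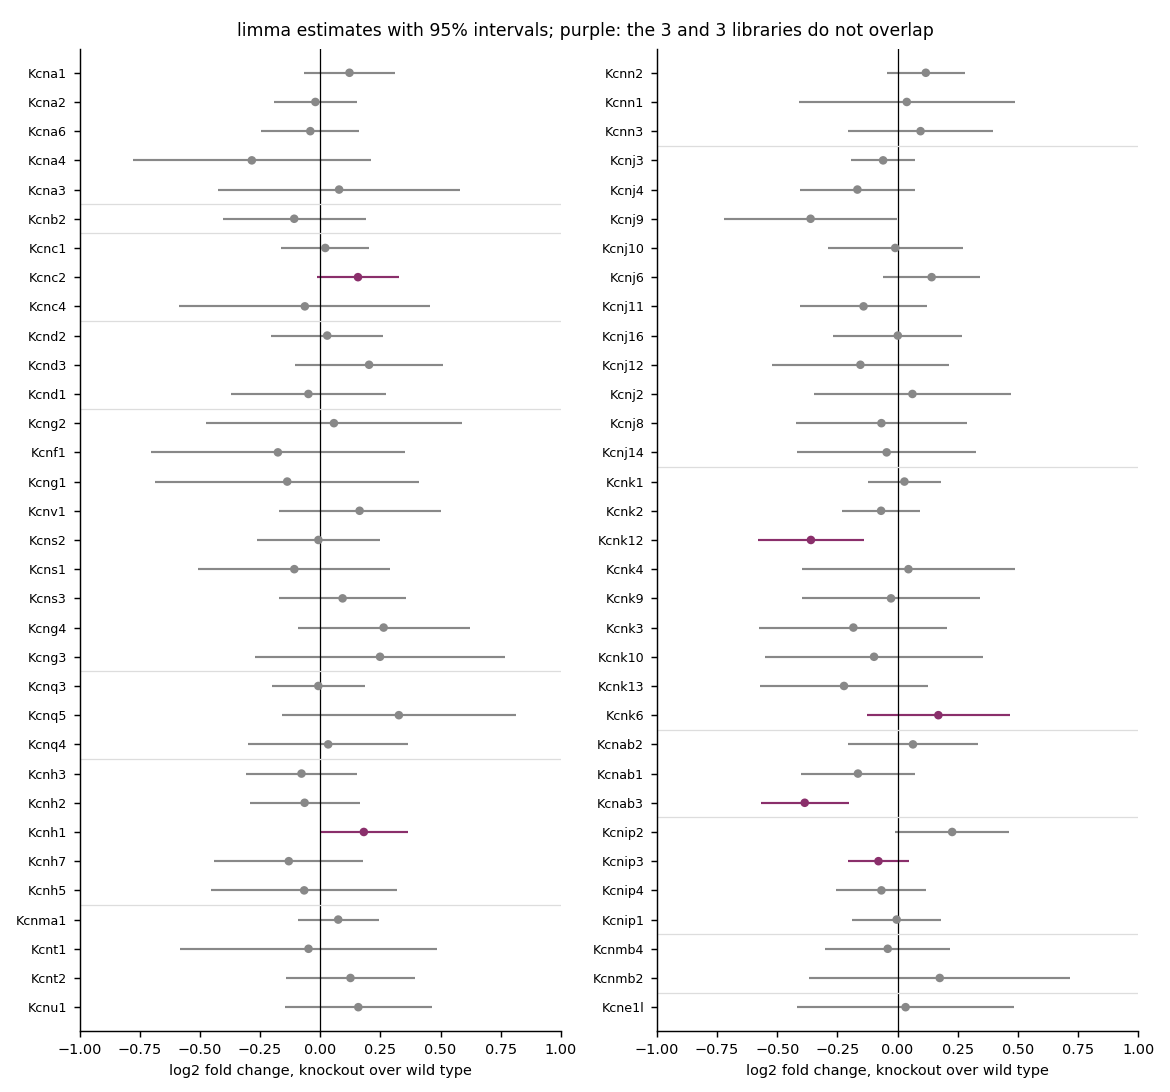
Estimated log2 fold change, knockout over wild type (x axis, limma on log2(value + 1)), with its 95% interval for 66 of the 69 tested genes, grouped by family from top to bottom. Purple marks the 6 genes whose 3 wild-type and 3 knockout values did not overlap, and the estimates lie between −0.386 and 0.327.

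miR-301a-3p is shown first because it is the molecule that the knockout lacks. Its sequence is followed by those of miR-130b-3p and miR-130a-3p, which are encoded on other chromosomes and carry the same seed. Sequences are from RefSeq (GRCm38.p6), written 5' to 3' with the seed in capitals.
mmu-miR-301a-3p: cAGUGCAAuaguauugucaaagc
mmu-miR-130b-3p: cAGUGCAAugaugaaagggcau
mmu-miR-130a-3p: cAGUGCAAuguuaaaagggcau
The 3 lie at chr11:87113054-87113076 on the plus strand, chr16:17124071-17124092 on the minus strand and chr2:84741116-84741137 on the minus strand. The precursor gene Mir301 was listed at 0 in all 6 libraries, so the genotype labels could not be checked by it, and mature microRNAs have no poly(A) tail to be selected by. Its host gene Ska2 stood at 5.80, 5.70 and 6.08 in wild type, and at 5.44, 5.17 and 6.14 in knockout (limma log2 fold change −0.0612, adjusted p = 0.955).

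The seed pairs with the heptamer TTGCACT, and the 8-mer TTGCACTA adds the A that faces the first nucleotide of the microRNA. In the longest annotated 3' UTR of each gene, read on the sense strand of the transcript, 4 tested potassium channel genes held the 8-mer. They are shown because a microRNA that lowers them directly would leave them higher in knockout. Each site is given with the bases around it, the match in capitals, on GRCm38 and on the strand of the gene.
Kcna4: ttttttttcttTTGCACTActttctatgc
Kcnj2: tccgttcatttTTGCACTAtagtctgaaa
Kcnt2: gtttagtatttTTGCACTAtgacaattgc
Kcnv1: atcaaagtctcTTGCACTAtgaacattgt
The windows are chr2:107297627-107297655 (plus strand), chr11:111074038-111074066 (plus), chr1:140611655-140611683 (plus) and chr15:45106391-45106419 (minus), each inside 1 exon of the 3' UTR. Kcna4 also held a second match of 7 bases nearer the stop codon:
Kcna4, upstream site: tatgcaaacgaTTGCACTgcatacagtaa
This one lies at chr2:107296965-107296993 on the plus strand.

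The 4 genes with the 8-mer did not share a direction, and none passed the test. Kcna4, which encodes a rapidly inactivating (A-type) Kv1 channel, had 9.66, 8.84 and 8.31 in wild type and 5.53, 6.19 and 10.5 in knockout. Knockout 1-1 and 2-2 lay below every wild-type library and knockout 3-1 above them, and the log2 fold change was −0.284 (SE 0.209, limma adjusted p = 0.902). It ran from −0.534 without knockout 3-1 (limma adjusted p = 0.589) to −0.125 without knockout 1-1 (adjusted p = 0.937), so it rested on single libraries. Kcnj2, a strong inward rectifier, was low, at 1.44, 1.17 and 1.37 in wild type and 0.949, 1.67 and 1.75 in knockout (log2 fold change 0.0618, SE 0.173). Kcnt2, a sodium-activated channel, had 6.73, 5.12 and 6.58 in wild type and 6.73, 6.64 and 6.87 in knockout, a log2 fold change of 0.126 (SE 0.112; 0.0176 without wild type 2-1). Kcnv1, an electrically silent subunit that joins Kv2 channels, stood at 14.6, 11.9 and 11.8 in wild type and at 17.6, 13.4 and 12.5 in knockout (log2 fold change 0.163, SE 0.142; 0.0246 without knockout 1-1). For Kcnj2, Kcnt2 and Kcnv1 the groups overlapped and the 95% intervals included 0.

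Counting every 3' UTR with the heptamer, matches were found in 12 of the 69 genes (17.4%), against 1555 of the 12737 tested genes with an annotated 3' UTR (12.2%). The 8-mer alone was in 5.8% of the 69 and in 2.54% of all. The 3' UTRs of the potassium channel genes were longer, with a median of 1843 nt against 1249 nt over all tested genes; the shares were not compared at matched length, and the part of length in them was not tested. Of the 12, 5 had a positive and 7 a negative log2 fold change, with a median of −0.00877. All tested genes with the heptamer had a median of 0.0205, with 905 positive and 650 negative. For the 8-mer, the 4 potassium channel genes had a median of 0.0937, with 3 positive and 1 negative. All tested genes with the 8-mer had a median of 0.0432, with 206 positive and 118 negative. These differences were not tested. The 41 genes without even the hexamer TGCACT had a median of −0.0408, against −0.0149 for all such genes. Genes with the heptamer but not the 8-mer included Kcnab1, Kcnh7, Kcnj8, Kcnj10, Kcnk10, Kcnma1 and Kcns2, and Kcnma1 held 2 matches. Kcnab1 is shown as the most abundant of these:
Kcnab1: ggggcctagctTTGCACTcagaatctgag
It lies at chr3:65377656-65377684 on the plus strand. These matches were found by letters alone and were not tested for binding.

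**Figure D2:**
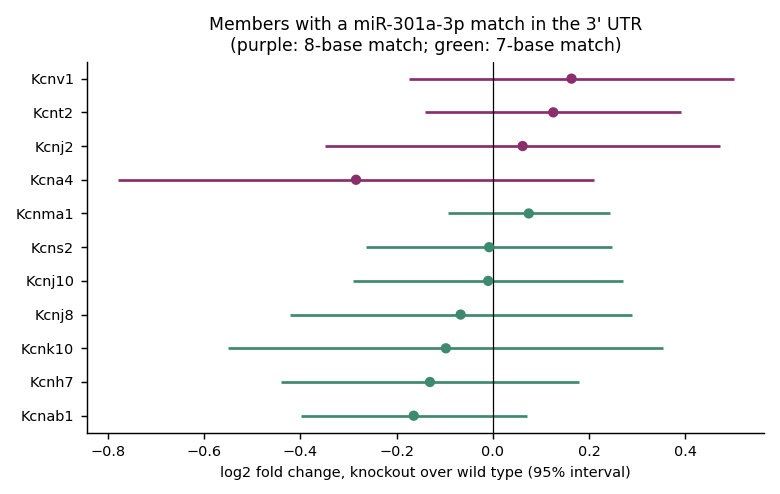
Log2 fold change, knockout over wild type, with its 95% interval (x axis) for 11 of the 12 tested genes whose longest annotated 3' UTR holds a match to the miR-301a-3p seed. Purple marks the 4 genes with the 8-base match and green 7 with the 7-base match; 4 of the drawn estimates are positive, 7 are negative, and all 11 intervals include 0.

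Levels are given in the deposited unit, which the table does not name. They were read as FPKM, that is, scaled by gene length, because the smallest values above 0 were lower in longer genes. How the libraries were scaled to each other is not stated. All 6 columns had the same median-ratio factor (1.00241), so they already shared a scale of that kind, and their sums do not give total read depth. Tested genes ranged from a mean of 1.0 to 222 over the 6 libraries; 36 had a mean of 10 or more, 4 of 50 or more and 1 of 100 or more. The fewest reads behind any value of a tested gene was about 38, if the smallest value above 0 of a library, per length, stands for 1 read. The values of the 94 genes summed to 1497, 1405 and 1405 in wild type and to 1442, 1431 and 1481 in knockout, and these ranges overlapped. Markers of the regions of the hippocampus were present in every library, for example C1ql2 of dentate granule cells at 32.5 to 59.8, Fibcd1 of CA1 at 30.3 to 48.5 and Cpne4 of CA3 at 34.1 to 68.0.

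**Figure D3:**
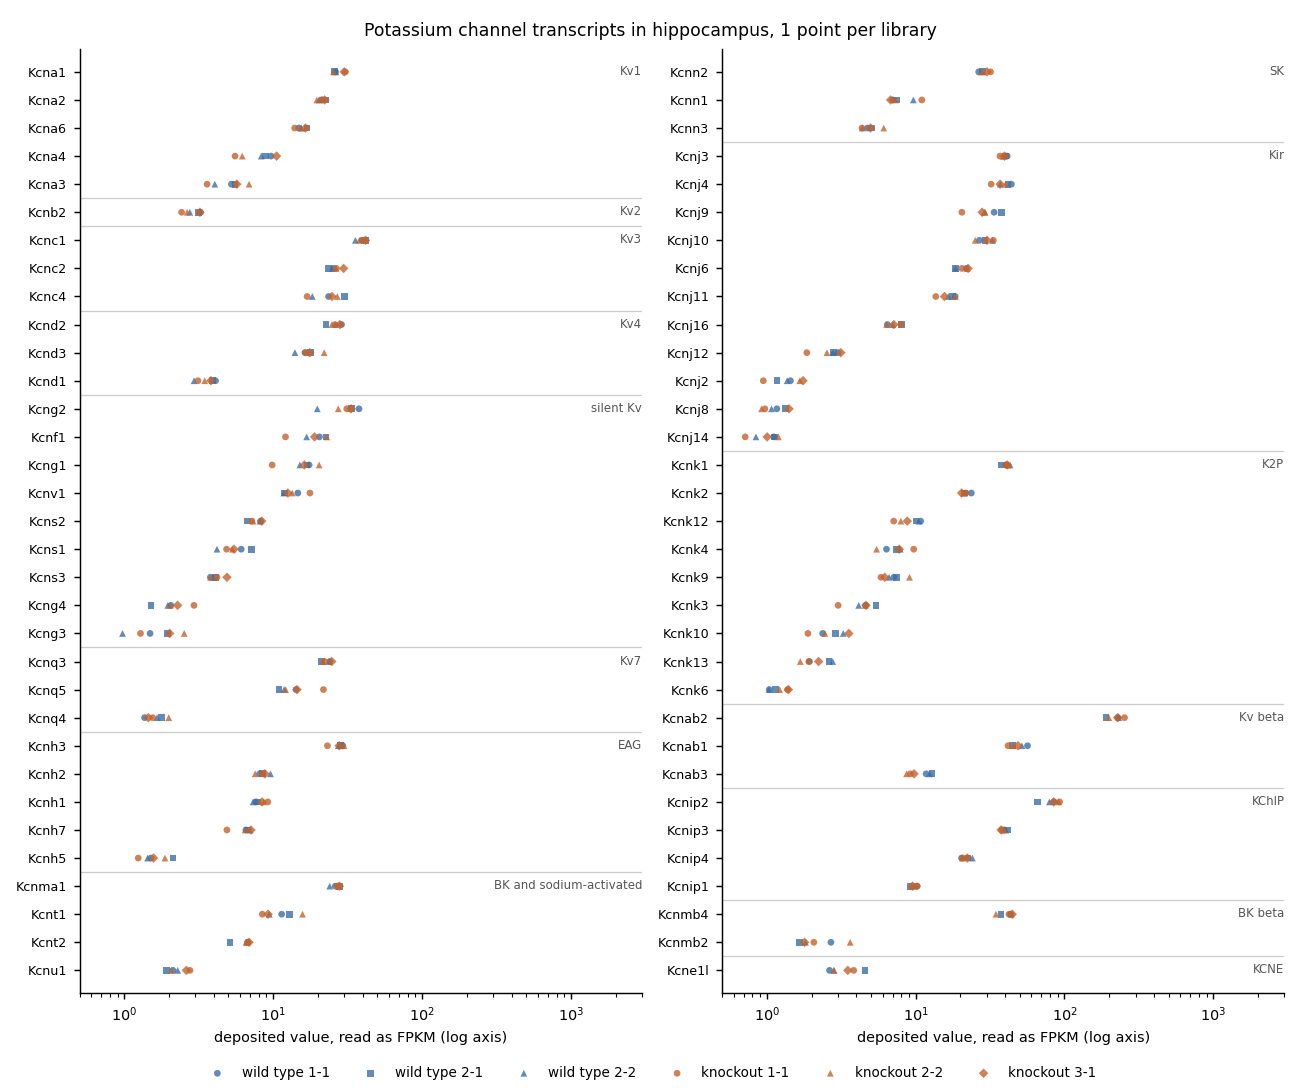
Deposited value, read as FPKM, of 66 of the 69 tested potassium channel genes in each library (log x axis), grouped by family and ordered by mean level within it. Blue symbols are the 3 wild-type and orange symbols the 3 knockout libraries; Kcnab2 stands highest (190 to 253), and the 2 colours overlap for all but 6 genes.

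Among the pore-forming subunits of the Kv1 to Kv4 families, Kcnc1, whose fast-closing channels let neurons fire at high rates, was at 39.1 ± 3.25 in wild type and 39.6 ± 1.91 in knockout (SD, n = 3 each), a log2 fold change of 0.0207 (SE 0.0773). Kcnc2, the Kv3 subunit typical of interneurons, had 25.4, 23.4 and 24.9 in wild type and 26.5, 26.3 and 29.7 in knockout. All knockout values lay above all wild-type values, but the log2 fold change of 0.157 (SE 0.0713) had an unadjusted limma p of 0.0643 and an adjusted p of 0.878. Of 7 interneuron markers, none of them at 0, 4 had positive and 3 negative log2 fold changes. Gad2, an enzyme of GABA synthesis, had 36.2, 31.8 and 32.2 in wild type and 37.3, 42.3 and 37.7 in knockout, all higher (log2 fold change 0.221, SE 0.079, limma adjusted p = 0.832). For Gad1, its sister enzyme, the log2 fold change was 0.17 (SE 0.0761, adjusted p = 0.877). Slc32a1 and Lhx6 were also positive, at 0.135 and 0.257. Pvalb, Sst and Vip were negative, at −0.143, −0.167 and −0.228. The summed values of the 7 ran from 611.8 to 696.8 in wild type and from 512.6 to 683.3 in knockout, mostly from Sst, with a mean of 412.9 in wild type. The part of interneurons in the Kcnc2 result was not tested.

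The axonal Kv1 subunits Kcna1 and Kcna2 were at 26.1 ± 0.216 and 21.3 ± 1.07 in wild type and 28.6 ± 2.78 and 21.0 ± 1.27 in knockout (SD, n = 3 each). Kcna1 showed the smaller spread in wild type, where its values were 26.2, 25.9 and 26.3, than in knockout, where they were 30.4, 25.4 and 29.9. Its log2 fold change was 0.121 (SE 0.0803, limma adjusted p = 0.893), and that of Kcna2 was −0.0203 (SE 0.0724; 0.00469 with equal library sums without mitochondrial genes). Of the other Kv1 genes, Kcna6 had a mean of 15.7 in wild type and 15.2 in knockout, and Kcna3 of 4.94 and 5.39. Kcnb2, a delayed rectifier of the Kv2 family, was at 3.04 ± 0.258 in wild type and 2.76 ± 0.41 in knockout (SD, n = 3 each). Kcnd2, the subunit of the dendritic A-type current, was at 25.8 ± 3.09 in wild type and 26.3 ± 1.63 in knockout, a log2 fold change of 0.0289 (SE 0.098). Kcnd3 had 16.3, 17.8 and 14 in wild type and 16.5, 22 and 17.6 in knockout (log2 fold change 0.203, SE 0.13, limma adjusted p = 0.893). Its groups overlapped, and knockout 2-2 alone stood well above the others.

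Silent Kv subunits form no channel on their own and join Kv2 subunits. Of 10 genes, 9 were tested, with 5 positive and 4 negative log2 fold changes; without knockout 1-1, 8 were positive. Kcng2 was the highest, with 37.6, 33.6 and 19.8 in wild type and 31.1, 27.3 and 33.3 in knockout, and its wild-type SD of 9.38 was wider than the difference between the group means of 30.3 and 30.6. Kcnf1 had 20.4, 22.6 and 16.8 in wild type and 12.1, 22.8 and 18.9 in knockout (log2 fold change −0.176, SE 0.223). Knockout 1-1 was its lowest library and knockout 2-2 its highest. Without knockout 1-1 its log2 fold change was 0.0699, the opposite sign.

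Kv7 channels carry the M-current, a slow current that acetylcholine closes and that holds back repeated firing. Kcnq3, a subunit of these channels, was at 22.9 ± 1.61 in wild type and 22.8 ± 1.66 in knockout (SD, n = 3 each), with a log2 fold change of −0.00813 (SE 0.0816; 0.0171 with equal library sums without mitochondrial genes). Kcnq5 had the highest log2 fold change of the 69 genes, 0.327 (SE 0.205, limma adjusted p = 0.893), from 14.2, 10.9 and 11.8 in wild type and 21.7, 12.1 and 14.4 in knockout. That estimate rested on knockout 1-1, and without it was 0.101. Kcnq1 was not tested; it had 0.116 to 0.221 in wild type, 0.104 and 0.125 in knockout 2-2 and 3-1, and 0.789 in knockout 1-1. It overlaps Kcnq1ot1 on the opposite strand, and whether reads were counted by strand is not stated.

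The EAG, ERG and ELK channels of the Kcnh genes were led by Kcnh3, a forebrain channel at 28.3 ± 0.998 in wild type and 26.9 ± 3.45 in knockout (SD, n = 3 each). Kcnh2, whose product repolarizes the heart and is also present in neurons, was at 8.70 ± 0.777 and 8.27 ± 0.64. Kcnh1 had 7.64, 7.79 and 7.32 in wild type and 9.18, 8.61 and 8.4 in knockout. Its groups did not overlap, with a log2 fold change of 0.181 (SE 0.0773, limma adjusted p = 0.874). The gene overlaps Hhat on the opposite strand, which had values of 0.266 to 0.540, and no source used here says whether reads were counted by strand. The other 4 tested Kcnh genes had negative log2 fold changes, from −0.131 to −0.065, but without knockout 1-1, 4 of the 5 genes of the family were positive.

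Among channels gated by calcium or sodium, the large-conductance (BK) subunit Kcnma1 was at 26.0 ± 2.0 in wild type and 27.4 ± 0.479 in knockout, and its brain auxiliary subunit Kcnmb4 at 41.6 ± 3.6 and 40.5 ± 5.21 (SD, n = 3 each). Kcnmb2, which makes BK channels inactivate, was far lower at 2.06 ± 0.563 and 2.50 ± 0.992. Kcnt1, a sodium-activated channel, had 11.4, 12.9 and 9.40 in wild type and 8.44, 15.7 and 9.22 in knockout, so the knockout libraries held both its lowest and its highest value. The small-conductance (SK) genes, whose channels open through bound calmodulin and produce the pause after a spike, all had small positive estimates, from 0.0383 to 0.117, although that of Kcnn1 turned to −0.154 without knockout 1-1 and that of Kcnn3 to −0.0137 without knockout 2-2. Kcnn2 was the highest of them, at 26.5, 28.2 and 27.9 in wild type and 31.9, 28 and 30.2 in knockout (log2 fold change 0.117, SE 0.068, limma adjusted p = 0.893). Kcnn1 was at 8.04 ± 1.42 and 8.38 ± 2.30 (SD, n = 3 each).

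The inward rectifiers had 11 tested genes, of which 3 had positive and 8 negative log2 fold changes, with a median of −0.06; 7 were negative when library sums without mitochondrial genes were made equal. Kcnj3, Kcnj6 and Kcnj9 encode the neuronal channels opened by G proteins, through which GABA-B and adenosine receptors silence neurons. Kcnj3 was steady, at 40.1 ± 1.10 in wild type and 38.4 ± 1.41 in knockout (log2 fold change −0.06, SE 0.0566). Kcnj9 had 33.7, 37.6 and 29 in wild type and 20.5, 29.3 and 28 in knockout. Knockout 2-2 lay just above the lowest wild-type library, and knockout 1-1 far below all others. The log2 fold change was −0.361 (SE 0.152, 95% interval −0.722 to −0.000728, limma adjusted p = 0.874), and without knockout 1-1 it was −0.206 (adjusted p = 0.831). Kcnj9 overlaps the antisense gene Gm36937, which had values of 1.64 to 4.31.

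Kcnj6 had 21.9, 18.5 and 18.6 in wild type and 20.5, 22.2 and 22.5 in knockout, with a log2 fold change of 0.142 (SE 0.0855, limma adjusted p = 0.893). Set against Kcnj3 in the same library, Kcnj6 was at ratios of 0.531, 0.463 and 0.475 in wild type and 0.555, 0.572 and 0.569 in knockout. This was the only one of 6 ratios between subunits of related channels whose groups did not overlap, and no test was made of it. Kcna2 over Kcna1 came close, at 0.807, 0.866 and 0.772 in wild type and 0.696, 0.772 and 0.739 in knockout, where the groups met at 0.772. Among single genes, the groups did not overlap for 11.4% of all tested, and no such share was computed for ratios. Kcnj6 was named after its values were seen. Kcnj9 over Kcnj3 was 0.832 ± 0.0992 in wild type and 0.673 ± 0.104 in knockout (SD, n = 3 each), and the groups overlapped. Kcnj4, a strong inward rectifier of forebrain neurons, was close to Kcnj3 in wild type at 41.0 ± 3.54, and was at 36.4 ± 4.02 in knockout (SD, n = 3 each; log2 fold change −0.167, SE 0.101, limma adjusted p = 0.893). Kcnj11, the pore of the ATP-sensitive channel, was at 17.6 ± 0.934 and 15.9 ± 2.43 (SD, n = 3 each).

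K2P leak channels were led by Kcnk1, at 40.5 ± 2.65 in wild type and 41.2 ± 0.724 in knockout, and by Kcnk2, a channel opened by stretch and lipids, at 22.1 ± 1.33 and 21.0 ± 0.704 (SD, n = 3 each). Kcnk12 (ENSMUSG00000050138.8, GRCm38 chromosome 17, 87745801 to 87797994, minus strand) had 10.8, 10.1 and 10.5 in wild type and 7.13, 7.96 and 8.80 in knockout. Every knockout value lay below every wild-type value, with a log2 fold change of −0.36 (SE 0.0925, 95% interval −0.579 to −0.141). Its unadjusted limma p of 0.00608 became 0.718 after adjustment over all genes tested. Over 13 alternative fits the log2 fold change stayed between −0.452 and −0.292 and the adjusted p between 0.688 and 1. Kcnk6 had 1.04, 1.15 and 1.04 in wild type and 1.38, 1.22 and 1.40 in knockout (log2 fold change 0.17, SE 0.125, limma adjusted p = 0.904), near the floor for testing. Both groups of Kcnk6 were separate, but at so low a level the scale of log2(value + 1) understates the change.

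The auxiliary Kv beta subunits bind Kv1 channels inside the cell and are related to oxidoreductases. They made up 19.5% of the summed potassium channel values in wild type and 19.4% in knockout, more than any other family. Kcnab2 was the most abundant of the 69 genes, at 228, 190 and 232 in wild type and 253, 199 and 228 in knockout (log2 fold change 0.064, SE 0.114). Kcnab1 was at 51.0 ± 5.86 and 45.3 ± 3.49 (SD, n = 3 each; log2 fold change −0.164, SE 0.0992, limma adjusted p = 0.893).

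Kcnab3 (ENSMUSG00000018470.8, GRCm38 chromosome 11, 69326258 to 69333042, plus strand) had the smallest p of the 69 genes. Its values were 11.8, 12.9 and 12.4 in wild type and 9.21, 8.70 and 9.77 in knockout. The groups were clearly apart, with means of 12.4 ± 0.555 and 9.23 ± 0.533 (SD, n = 3 each). The log2 fold change was −0.386 (SE 0.0775, 95% interval −0.569 to −0.202), with an unadjusted limma p of 0.00165 and an adjusted p of 0.51. Over 13 alternative fits the log2 fold change lay between −0.423 and −0.348 and the adjusted p between 0.43 and 1. Kcnab3 overlaps Kcnab3os on the opposite strand, listed at 0, 0.481 and 0.167 in wild type and at 0.353, 0.593 and 0.333 in knockout. Its 3' UTR was not among those with the seed heptamer. The lower estimates of Kcnab3, Kcnk12 and Kcnj9 stood beside lower estimates for all 5 CA1 markers (median log2 fold change −0.396, 0 of 5 called, none at 0), whose summed values were 230.8, 167.4 and 209.2 in wild type and 160.5, 149.6 and 192.2 in knockout. The part of these markers in the 3 results was not tested.

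**Figure D4:**
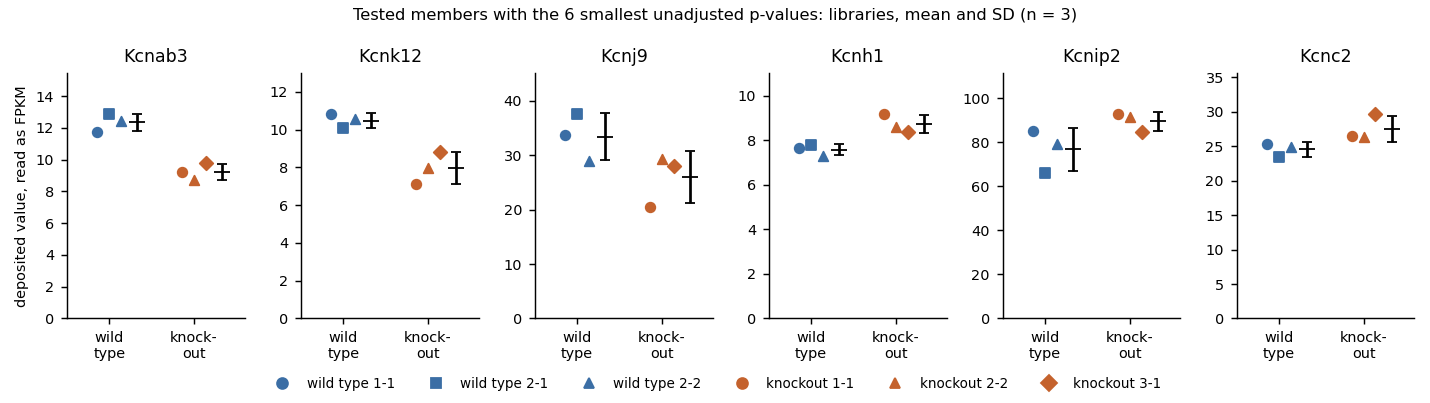
Deposited values, read as FPKM (y axes from 0), of the 6 tested genes with the smallest unadjusted p-values, 1 symbol per library, with the mean and SD of each group (n = 3) in black. The groups are separate for Kcnab3, Kcnk12, Kcnh1 and Kcnc2 and overlap for Kcnj9 and Kcnip2; none of the 6 had an adjusted p under 0.51.

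KChIP proteins bind Kv4 channels, sense calcium and speed the channels to the membrane. Kcnip2, the most abundant of them, had 85.0, 65.9 and 79.3 in wild type and 92.7, 91.3 and 84.6 in knockout. Wild type 1-1 lay just above the lowest knockout library, and the log2 fold change was 0.227 (SE 0.0994, limma adjusted p = 0.876). Kcnip3, also known as a calcium-dependent transcriptional repressor, had 39.3, 41.7 and 40.4 in wild type and 37.9, 39.2 and 37.6 in knockout. Its groups were just separate, with knockout 2-2 close to wild type 1-1, and the log2 fold change was −0.0794 (SE 0.0541, limma adjusted p = 0.893). Kcnip4 was at 22.3 ± 1.86 and 21.2 ± 0.934, and Kcnip1 at 9.77 ± 0.503 and 9.74 ± 0.449 (SD, n = 3 each). The Kv4 pore genes that these subunits bind had estimates from −0.0493 to 0.203.

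Genes for proteins that work with potassium channels, but carry other names, were read from the same fit. Of 23 such genes 20 were tested, 0 had an adjusted or unadjusted limma p under 0.05, 8 had positive and 12 negative log2 fold changes, and the median was −0.0159. The groups did not overlap for 2 of the 20, Lgi1 and Dlg2, an extracellular and a scaffold partner of Kv1 channels, which is near the 11.4% of all tested genes. Lgi1 had 63.1, 63.8 and 61.3 in wild type and 67.9, 64.1 and 70.6 in knockout. Dlg2 had 65.2, 67.1 and 65.2 in wild type and 67.8, 67.3 and 74.9 in knockout. The Kv4 partner Dpp6 was at 84.9 ± 3.66 in wild type (SD, n = 3), and the BK partner Lrrc52 was listed at 0 in every library.

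Several potassium channel genes mark cells other than neurons. Kcnj10, the main channel by which astrocytes clear potassium, had 26.8, 29.3 and 32.8 in wild type and 33.3, 25.1 and 30.2 in knockout (log2 fold change −0.00976, SE 0.118; 0.0155 with equal library sums without mitochondrial genes). Kcnj16, its partner subunit, had 6.47, 8.01 and 7.03 in wild type and 7.98, 6.40 and 7.14 in knockout (log2 fold change 0.00103, SE 0.113). In both, knockout 2-2 was the lowest library. Beside them stood 5 astrocyte markers, none at 0. Their summed values ran from 421.9 to 460.1 in wild type and from 419.1 to 483.9 in knockout. The sum was lowest in knockout 2-2, but of the single markers only Aldh1l1 was. Gja1 was higher in every knockout library (log2 fold change 0.242) and Gfap lower (−0.29), while the groups overlapped for Aqp4, Slc1a3 and Aldh1l1. The part of astrocytes in these values was not tested. Kcnj8, the pericyte subunit of the ATP-sensitive channel, had 1.17, 1.34 and 1.08 in wild type and 0.973, 0.924 and 1.41 in knockout. Kcnj13, a channel of the choroid plexus, and Kcne2, an auxiliary subunit found there, were below the floor for testing. Kcnj13 had 0.677, 0 and 0.0498 in wild type and 0.293, 0.713 and 0 in knockout, while Kcne2 was between 0.037 and 0.222. The summed values of 6 choroid plexus markers were 6.39, 7.18 and 8.59 in wild type and 19.7, 16.2 and 8.81 in knockout. The difference lay in Ttr, with 1.68, 1.41 and 2.57 in wild type and 12.2, 10.7 and 2.74 in knockout, while the groups overlapped for Folr1 and Kl, the other tested markers. Otx2 was the marker among them listed at 0 in some libraries, and the part of choroid plexus in these values was not tested.

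The 25 genes that were not tested had no value above 1.26, and 18 of them had every value under 0.5. They included Kcnj1, a channel of the kidney, which was listed at 0 in all 6 libraries, and the KCNE genes Kcne1, Kcne2, Kcne3 and Kcne4. Kcne1l was the only KCNE gene tested, at 3.35 ± 1.06 in wild type and 3.39 ± 0.52 in knockout (SD, n = 3 each). Just inside the threshold, Kcnj14 had 1.12, 1.13 and 0.847 in wild type and 0.717, 1.2 and 1.01 in knockout. Just outside it lay Kcna5 (0.657 to 1.26) and Kcnh4 (0.519 to 1.2), each with 2 libraries at 1 or more.

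One knockout library stood apart from the rest in these genes. Knockout 1-1 was the highest or lowest of the 6 libraries for 39 of the 69 genes (56.5%, 14 highest and 25 lowest), while it was so for 35.9% of all genes tested. Wild type 2-1 came next among the 69 genes, at 40.6%. Over all genes tested, knockout 2-2 had the highest share, 40.8%. The median distance of knockout 1-1 from the wild-type mean was 0.203 on the log2 scale over the 69 genes and 0.118 over all tested genes. It was 0.111 and 0.133 in knockout 2-2 and 0.101 and 0.104 in knockout 3-1. In knockout 1-1, Kcnq5 at 21.7 stood above a range of 10.9 to 14.4 in the other 5 libraries. Kcng1, a silent subunit, stood at 9.82 in knockout 1-1, against 15.1 to 20.3 elsewhere. Its log2 fold change was −0.137 with all libraries and 0.137 without knockout 1-1.

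Knockout 1-1 was also the highest or lowest library in the summed values of 10 of 14 marker lists, against 1 to 6 lists for each other library. It was not so for the CA1, oligodendrocyte, endothelial and mural lists. For thalamus the margin was slight, at 17.04 against 17.01 in wild type 2-2. The low interneuron sum came mostly from Sst, at 271.9 in knockout 1-1 and 369.4 to 462.6 elsewhere. Summed values of 4 dentate markers were 141.7, 147.6 and 114.7 in wild type, and 85.6, 137.3 and 142.5 in knockout 1-1, 2-2 and 3-1. Those of 5 CA3 markers were 126.3, 101.3 and 132 in wild type and 187.1, 106.4 and 141 in knockout. Sums of 3 ependymal markers ran from 8.12 to 13.5 in wild type and were 22.7, 10.2 and 13.8 in knockout, and sums of 3 erythroid markers ran from 94.8 to 173.9 and were 257.5, 134.5 and 130.8. None of the dentate, CA3, ependymal or erythroid markers was at 0 in any library. The part of these cell types in the values of knockout 1-1 was not tested. Without knockout 1-1, 42 of the 69 genes had a positive log2 fold change, the median was 0.0263, 0 genes were called, and 2 had an unadjusted limma p under 0.05. The groups did not overlap for 11 of the 69 genes in that fit of 3 libraries against 2, where 22.6% of all tested genes were separate.

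**Figure D5:**
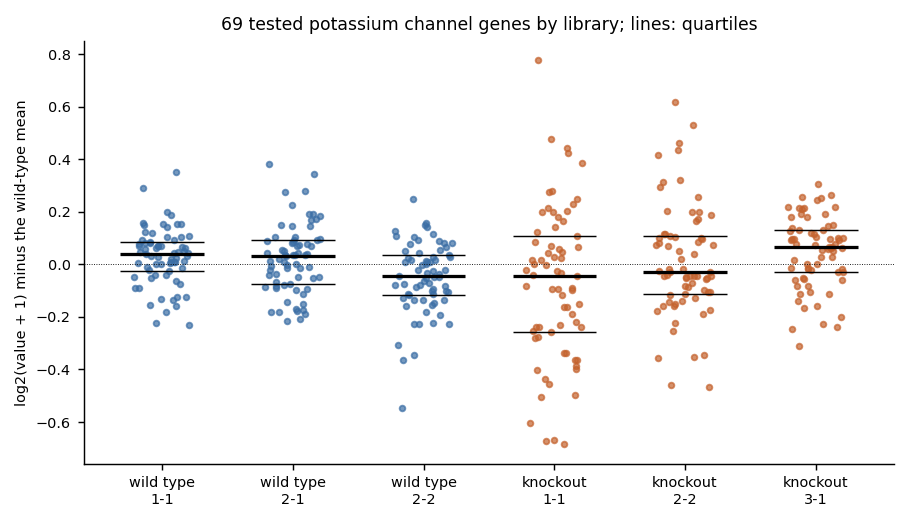
Difference of each library from the wild-type mean in log2(value + 1) (y axis), with 1 point for each of the 69 tested genes and lines at the quartiles and median of each library. Points of knockout 1-1 spread widest, with a median distance of 0.203 from the wild-type mean, against 0.111 and 0.101 in the other knockout libraries.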

How the data were processed

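Poly(A) RNA of hippocampus, extracted with Trizol per the labels' protocols, was measured in 3 wild-type and 3 knockout libraries. The deposited table gives 1 value per gene and library; its unit is not named, and the values were read as FPKM as deposited by the authors. The same table holds the authors' log2 fold change, p-value and adjusted p-value, with no test named. HISAT2 2.1.0, HTSeq and bcl2fastq appear, per the submitters' processing notes, with no role given, and the design text names other programs. Library depth is not given, so no counting interval was computed.

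The test was limma 3.58.1 (R 4.3.3) on log2(value + 1) (genotype, empirical Bayes with trend, two-sided, Benjamini-Hochberg) over the 14708 genes that reached 1 in 3 or more libraries, and only potassium channel rows are reported. This scale understates changes of low genes. The fit was run on simulated data with independent noise and added changes larger than any estimate of the 69 genes. That run does not show how well changes of the size seen here are detected. Positions and 3' UTRs are from GENCODE M21 (GRCm38), microRNAs from RefSeq. The genes and lists were chosen with earlier results of these data known. Genes named in detail were the 2 highest of each family, those whose groups did not overlap, those with the 8-mer and those that mark non-neuronal cells. Kcnj9, Kcnj6, Kcnq5 and Kcng1 were named after their values were seen, and other genes are given to complete their families. Alternatives were another pseudocount, other filters, 2 scalings, limma without trend, a replicate block and each library left out. A few of the 69 tested genes enter every count but are not reported here singly.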

Additional observations from a re-analysis of the deposited data

How the results depend on the processing

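The number of potassium channel genes with a limma adjusted p under 0.05 was 0 under all 13 alternatives, while the number with an unadjusted p under 0.05 ran from 2 to 6. The number whose groups did not overlap was 10 when library sums without mitochondrial genes were made equal (11.8% of all tested genes), and from 10 to 18 with each library left out, where 3 libraries face 2 and 19.6% to 22.6% of all tested genes were separate. The median log2 fold change stayed between −0.0289 and 0.0263, within the spread between libraries (SD 0.0534). Scaling by median ratios changed nothing, since the factor was 1.00241 in every library. Of 42 genes named with a test, 24 kept their sign under every alternative. With each library left out in turn, 24 kept their sign, but 19 of these moved by over 1.5 times without at least 1 library, and none of them was called. With the replicate block Kcnt2 was at 0.00605. With each library left out, the log2 fold changes that changed sign ran as follows: Kcna2 −0.0578 to 0.0252, Kcnab2 −0.0274 to 0.154, Kcnc1 −0.0434 to 0.0732, Kcnd2 −0.0609 to 0.106, Kcne1l −0.0811 to 0.225, Kcnf1 −0.364 to 0.0699, Kcng1 −0.352 to 0.137, Kcng2 −0.216 to 0.233, Kcnh3 −0.155 to 0.0234, Kcnj10 −0.0978 to 0.0975, Kcnj16 −0.0693 to 0.0738, Kcnj2 −0.0289 to 0.221, Kcnk1 −0.0183 to 0.0739, Kcnmb2 −0.045 to 0.321, Kcnmb4 −0.113 to 0.0653, Kcnn1 −0.154 to 0.163, Kcnq3 −0.0654 to 0.0303, Kcnt1 −0.305 to 0.108. The cause was not tested. With equal sums without mitochondrial genes, Kcna2 was at 0.00469, Kcnj10 at 0.0155 and Kcnq3 at 0.0171. The codes 1-1 and 2-2 occur in both genotypes. Deviations of same-coded libraries from their group means had correlations of −0.0986 and −0.0606 across genes, and those of differently coded libraries ran from −0.0568 to 0.11. With 2 such pairs, whether the codes pair the libraries cannot be told. With the replicate block 0 of 69 genes were called, 4 had an unadjusted p under 0.05, the median was −0.0213, and Kcnab2 was at −0.0347, Kcnd2 at −0.106, Kcnj2 at −0.0782, Kcnk1 at −0.0189 and Kcnt1 at 0.146.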
